A study of Mus musculus with 8 samples.

Results

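The hedgehog receptor and effector genes are Ptch1, Smo, Gli1, Gli2, Gli3 and Hhip. They were taken by name: every probe set whose platform annotation gives 1 of these symbols and no other was used, and each gene is represented by the brightest of its probe sets, by the mean of the 8 arrays. All 6 genes were measured, by 16 probe sets, out of 18193 genes and 34945 probe sets that name a single gene. The study hybridised 3 ICC-DMP, 3 ICC-MY and 2 tunica muscularis samples. All came from BALB/c mice 6 to 9 days old, and the tissue of origin was small intestine. ICC are interstitial cells of Cajal, the pacemaker and nerve-relay cells of gut muscle. DMP and MY are the usual abbreviations for those of the deep muscular plexus and of the myenteric region, which the labels do not spell out. Tunica muscularis is the muscle coat that holds both. The labels name no treatment or genetic change in any group, and do not say how the cells were isolated or how many mice gave a sample.

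Hedgehog ligands are secreted proteins that bind Patched1. Unbound Patched1 holds the membrane protein Smoothened inactive, and ligand releases this hold, so that Smoothened enters the primary cilium and the GLI zinc-finger factors switch from repression to activation of their targets. Ptch1, Gli1 and Hhip are themselves targets and restrain or extend the signal. In the developing gut the ligands come mainly from the epithelium, and the responding cells are those of the surrounding mesenchyme, from which smooth muscle and ICC arise.

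Values are log2 expression levels as deposited, so a difference of 1 is a doubling. The median array value was 4.18 to 4.30. On 2 arrays, ICC-MY replicate 1 and tissue replicate 1, the values were less spread, with an SD across probe sets of 1.98 and 2.06, where the other 6 arrays had 2.22 to 2.31. They are called the narrow-range arrays. Kit, the receptor that marks ICC, was higher than in tissue by 3.27 in ICC-DMP (adjusted p = 0.00366) and by 3.92 in ICC-MY (adjusted p = 0.00112). Of the 6 ICC markers, 4 were higher than in tissue in ICC-DMP and 5 in ICC-MY, beside 3.72% and 4.05% of all genes. The markers were chosen with earlier results of these data known, so their count is no independent check of the groups. Each adjusted p is limma's, with Benjamini-Hochberg adjustment over all genes unless probe sets are named, and 0.05 was the threshold for passing. Precision is limited by the number of arrays, tissue having 2.

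Ptch1, which encodes the ligand receptor and is itself switched on by GLI factors, was higher in ICC-DMP than in ICC-MY. It read 10.51, 10.98 and 10.94 in ICC-DMP, 8.40, 9.41 and 9.17 in ICC-MY, and 9.02 and 10.75 in tunica muscularis. All ICC-DMP values lay above all ICC-MY values, while the tissue arrays spanned the gap between the classes, with the lower tissue value on the narrow-range array. ICC-DMP exceeded ICC-MY by 1.81 (SE 0.44, adjusted p = 0.0383), a 3.52-fold difference. Leaving out any single ICC array ended that call while the difference stayed between 1.52 and 2.02 (adjusted p 0.0584 to 0.148 without ICC-DMP replicate 1, 2 or 3 or ICC-MY replicate 1, 2 or 3). Leaving out both narrow-range arrays kept it (1.52, adjusted p = 0.00133). In bulk RNA, fewer cells that express a gene and less RNA per cell cannot be told apart.

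Against tissue, Ptch1 did not pass in either class. The ICC-DMP mean was 10.81 ± 0.26 (SD, n = 3) against 9.88 ± 1.22 (SD, n = 2) in tissue, a difference of 0.93 (95% interval -0.20 to 2.05, adjusted p = 0.346). The ICC-MY mean was 8.99 ± 0.53 (SD, n = 3), a difference of -0.89 (95% interval -2.01 to 0.24, adjusted p = 0.333). The call against tissue turned on which tissue array is kept: without tunica muscularis replicate 1 the ICC-MY value was lower (-1.75, adjusted p = 0.0268) and the ICC-DMP difference was 0.06 (adjusted p = 0.973), and without replicate 2 the ICC-DMP value was higher (1.79, adjusted p = 0.0309) and the ICC-MY difference was -0.02 (adjusted p = 0.984). With the replicate block, which pairs arrays by their number, Ptch1 in ICC-MY passed as lower (-0.97, adjusted p = 0.0309). Within each number, ICC-MY was below tissue, with 8.40 against 9.02 and 9.41 against 10.75. Quantile normalization (-0.85, adjusted p = 0.0483) and leaving out both narrow-range arrays (-1.46, adjusted p = 0.00574) also gave this call. The order of the mean levels was ICC-DMP, tissue, ICC-MY, and the arrays of neighbours in it overlapped. The other 2 Ptch1 probe sets were dim, between 2.97 and 4.72, and passed in no comparison. Between the classes they differed by 0.10 and 0.34, and with the 3 probe sets averaged Ptch1 was higher in ICC-DMP by 0.75 (adjusted p = 0.00964). These 2 dim probe sets stood above tissue by 0.30 and 0.31 in ICC-MY and by 0.40 and 0.66 in ICC-DMP. With the 3 averaged, ICC-MY minus tissue was -0.09 (adjusted p = 0.796), and ICC-DMP minus tissue passed (0.66, adjusted p = 0.0227).

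**Figure D1:**
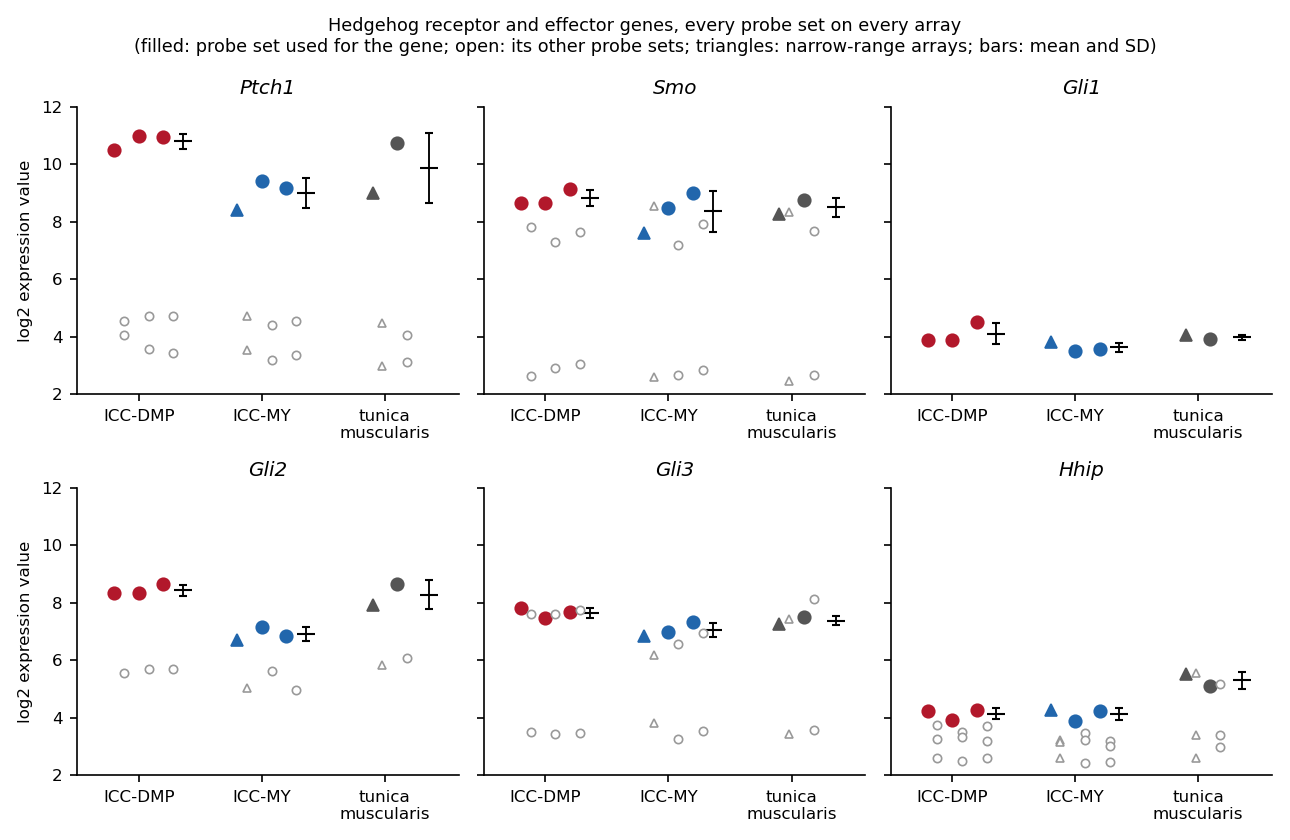
Log2 expression value (y axis) of each hedgehog member on each array, by group; filled symbols are the probe set used for the gene, open symbols its other probe sets, triangles the narrow-range arrays, and bars the mean and SD. For Ptch1 and Gli2 the 3 ICC-DMP arrays sit above the 3 ICC-MY arrays, for Hhip the 2 tissue arrays sit above the other 6, and Gli1 stays between 3.51 and 4.52.

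Of the members 5 have a promoter window in the RefSeq table (build GRCm38.p6, 250 bases before to 50 after a start site). Those of the 3 genes that passed a comparison are shown where each gene is described. They were searched on both strands for the GLI consensus GACCACCCA, found in 0.253% of all 32851 windows, and for the ACCACCC core inside it, found in 4.61%. Capitals mark a match. Ptch1 lies on chromosome 13 and is transcribed from the minus strand. Its window, chr13:63565686-63565985, holds neither motif and is 76.3% G and C, against a median of 52.7% over all windows. That start site lies inside the annotated gene span, which reaches 63573460.
Ptch1: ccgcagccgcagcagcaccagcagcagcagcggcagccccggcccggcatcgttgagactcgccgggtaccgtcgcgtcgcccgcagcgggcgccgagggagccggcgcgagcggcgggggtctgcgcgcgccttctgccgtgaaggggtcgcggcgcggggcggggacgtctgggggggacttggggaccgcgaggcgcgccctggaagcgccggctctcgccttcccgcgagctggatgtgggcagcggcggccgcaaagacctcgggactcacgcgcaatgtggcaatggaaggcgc

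Smo encodes Smoothened, the transducer that Patched1 holds inactive, and passed in no comparison. It read 8.66, 8.67 and 9.15 in ICC-DMP, 7.60, 8.48 and 9.00 in ICC-MY, and 8.27 and 8.75 in tissue. The 3 groups overlapped, and the lowest value was again that of the narrow-range ICC-MY array. The difference between ICC-DMP and ICC-MY was 0.46 (95% interval -0.32 to 1.25, adjusted p = 0.589), so that a 2-fold difference in favour of ICC-DMP lies within the interval. It was 0.08 without ICC-MY replicate 1, 0.08 without both narrow-range arrays, 0.11 with probe sets averaged and 0.13 with array weights, and reached 0.78 without ICC-MY replicate 3. ICC-DMP minus tissue was 0.32 (95% interval -0.56 to 1.19) and ICC-MY minus tissue -0.15 (95% interval -1.02 to 0.73). Its second probe set ran the other way on the narrow-range arrays, with 8.54 in ICC-MY replicate 1 and 8.35 in tunica muscularis replicate 1 against 7.17 to 7.91 on the other 6, and did not pass either.

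The 3 GLI factors are the transcriptional end of the pathway. Gli2 is its main activator in most mouse tissues, Gli3 is mostly cut to a repressor where ligand is absent, and Gli1 is an activator made in response to the signal. All 3 had their ICC-DMP values above all their ICC-MY values, and Gli2 alone passed. Gli2 read 8.33, 8.34 and 8.66 in ICC-DMP, 6.70, 7.16 and 6.86 in ICC-MY, and 7.92 and 8.64 in tissue. Every ICC-MY array lay below every array of the other groups, whose values overlapped.

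Gli2 was higher in ICC-DMP than in ICC-MY by 1.54 (SE 0.22, adjusted p = 0.00312), a 2.90-fold difference. ICC-MY was below tissue by 2.59-fold (-1.37, SE 0.25, adjusted p = 0.00695). In ICC-DMP it stood 0.16 from tissue (95% interval -0.40 to 0.73, adjusted p = 0.828). Both calls were kept under each of the 18 alternatives run, with ICC-DMP minus ICC-MY between 0.99, with probe sets averaged, and 1.66 and ICC-MY minus tissue between -1.73 and -1.01. In these 2 comparisons the second Gli2 probe set went the same way but did not pass over all probe sets: it read 5.56, 5.70 and 5.69 in ICC-DMP, 5.04, 5.61 and 4.96 in ICC-MY, and 5.82 and 6.08 in tissue (ICC-DMP minus ICC-MY 0.45, adjusted p = 0.268, and ICC-MY minus tissue -0.75, adjusted p = 0.0551). Its ICC-DMP values overlapped those of ICC-MY and lay below both tissue arrays (-0.30, adjusted p = 0.512).

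Gli2 lies on chromosome 1 and is transcribed from the minus strand. Its window, chr1:119053570-119053869, is 67.3% G and C. It was the only 1 of the 5 windows with a match, a core on the reverse strand that begins 205 bases before the start site. That start site and the match lie inside the annotated gene span, which reaches 119054405.
Gli2: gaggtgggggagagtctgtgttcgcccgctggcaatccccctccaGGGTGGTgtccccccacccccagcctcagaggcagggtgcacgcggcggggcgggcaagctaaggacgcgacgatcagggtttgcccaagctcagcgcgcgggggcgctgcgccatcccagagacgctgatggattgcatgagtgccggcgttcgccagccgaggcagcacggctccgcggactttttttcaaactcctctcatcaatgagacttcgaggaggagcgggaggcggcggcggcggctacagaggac

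Gli3 showed a smaller difference whose call depended on the probe set. The probe set used for the gene read 7.80, 7.46 and 7.67 in ICC-DMP, 6.84, 6.98 and 7.33 in ICC-MY, and 7.27 and 7.49 in tissue. ICC-DMP lay above ICC-MY without overlap, by 0.59 (SE 0.17, 95% interval 0.192 to 0.995), but did not pass (adjusted p = 0.0857, and 0.0493 without ICC-MY replicate 3). A second probe set of nearly the same brightness read 7.62, 7.59 and 7.73 in ICC-DMP, 6.20, 6.56 and 6.94 in ICC-MY, and 7.44 and 8.15 in tissue. Over all probe sets it passed as higher in ICC-DMP than in ICC-MY (1.08, SE 0.24, adjusted p = 0.0273) and, in ICC-MY, as lower against tissue (-1.23, SE 0.26, adjusted p = 0.0175). For ICC-MY minus tissue the first probe set gave -0.33 (adjusted p = 0.373). The remaining, dim probe set stayed between 3.26 and 3.80.

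Gli1, often used as a readout of active signalling, was dim. Its single probe set read 3.90, 3.89 and 4.52 in ICC-DMP, 3.81, 3.51 and 3.55 in ICC-MY, and 4.04 and 3.91 in tissue, above the array's own median on 1 of the 8 arrays. The deposited values carry no detection call, so whether this probe set was above background was not tested. ICC-DMP exceeded ICC-MY by 0.48 (95% interval 0.03 to 0.93) and did not pass (adjusted p = 0.235). Without ICC-DMP replicate 3 the difference was 0.27 (adjusted p = 0.549). ICC-MY lay below both tissue arrays without passing (-0.36, adjusted p = 0.404).

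Hhip encodes the hedgehog-interacting protein, a membrane-bound decoy that takes up ligand, and is a target of the pathway. By the probe set used for the gene it was lower in both ICC classes than in tissue and did not separate the classes. It read 4.23, 3.91 and 4.27 in ICC-DMP, 4.26, 3.89 and 4.23 in ICC-MY, and 5.51 and 5.09 in tissue. All 6 ICC arrays lay below both tissue arrays, at about the level of the array medians. Whether these ICC values were above background was not tested. ICC-DMP was lower by 2.24-fold (-1.16, SE 0.20, adjusted p = 0.00764) and ICC-MY by 2.25-fold (-1.17, SE 0.20, adjusted p = 0.0058). Between the classes the difference was 0.01 (95% interval -0.41 to 0.43, adjusted p = 0.989).

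A second Hhip probe set showed the same drop, larger in size. It read 3.73, 3.50 and 3.71 in ICC-DMP, 3.21, 3.48 and 3.19 in ICC-MY, and 5.56 and 5.19 in tissue, and was above the array median on the 2 tissue arrays only. Over all probe sets it was lower by 1.73 in ICC-DMP (SE 0.17, adjusted p = 0.000391) and by 2.09 in ICC-MY (SE 0.17, adjusted p = 0.000146). The remaining 2 probe sets lay between 2.41 and 3.41 and passed in no comparison.
Hhip lies on chromosome 8 and is transcribed from the minus strand. Its window, chr8:80057959-80058258, is 73.7% G and C and holds neither motif.
Hhip: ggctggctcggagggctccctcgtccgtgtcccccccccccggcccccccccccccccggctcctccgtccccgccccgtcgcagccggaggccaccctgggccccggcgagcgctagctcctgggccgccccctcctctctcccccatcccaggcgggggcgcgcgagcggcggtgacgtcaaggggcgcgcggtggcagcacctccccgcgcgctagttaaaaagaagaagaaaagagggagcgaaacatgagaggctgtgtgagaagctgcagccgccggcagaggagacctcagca

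**Figure D2:**
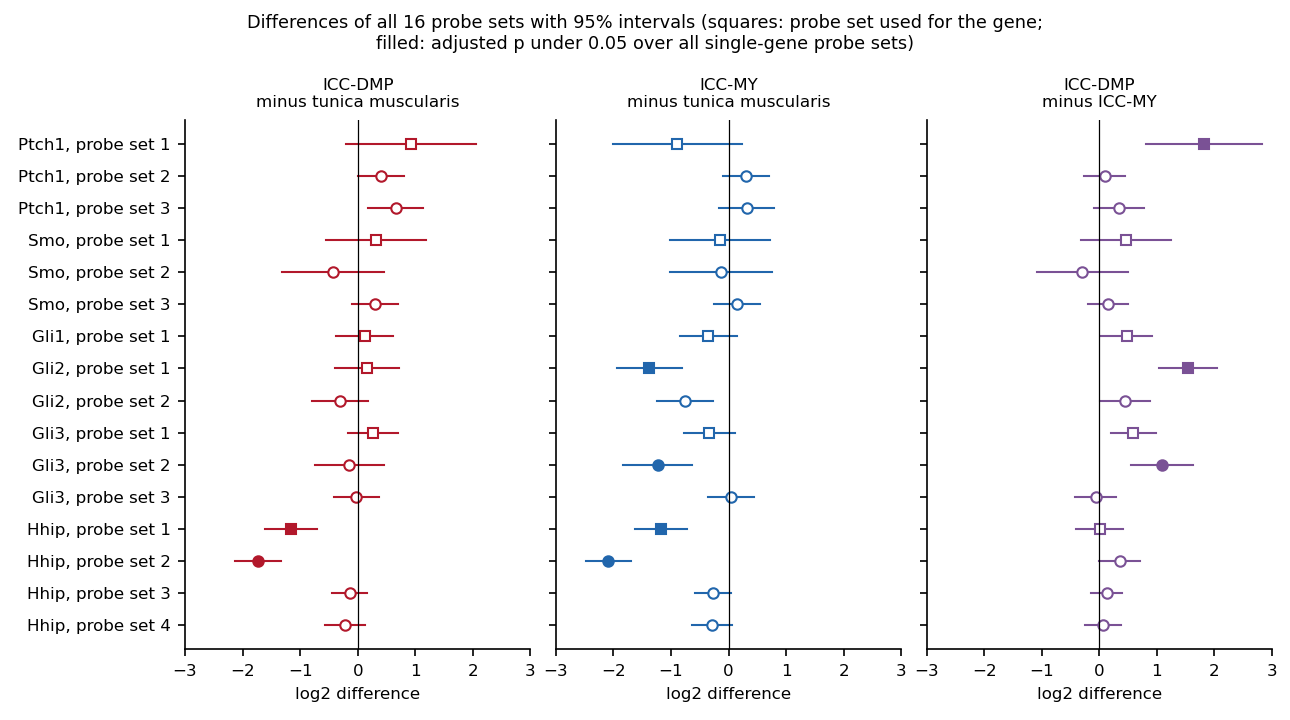
Log2 difference (x axis) with its 95% interval for each of the 16 probe sets (y axis, in order of brightness within a gene) in the 3 comparisons; squares are the probe set used for the gene and filled symbols passed over all single-gene probe sets. Hhip's 2 brighter probe sets lie left of 0 against tissue in both ICC classes, and Ptch1, Gli2 and a Gli3 probe set lie right of 0 between the classes.

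Counted together, 1 of 6 members passed in ICC-DMP against tissue (Hhip, lower), beside 11.0% of all genes, 3.72% higher and 7.32% lower. In ICC-MY against tissue 2 passed (Gli2 and Hhip, lower), beside 13.8% of all genes, 4.05% higher and 9.78% lower. Of those genes 736 were higher and 1780 lower, and 1595 and 2261 under quantile normalization. Between the classes 2 passed (Ptch1 and Gli2, higher in ICC-DMP), beside 8.67% of all genes, 5.36% higher and 3.30% lower. Those 1577 genes became 2617 with the replicate block. Of the 1577, 976 were higher and 601 lower, and this balance depended on the setting: 1332 and 1225 under quantile normalization, 1358 and 1288 with array weights, 872 and 968 without ICC-MY replicate 1, and 1228 and 1402 without both narrow-range arrays. The arrays of ICC-DMP and ICC-MY did not overlap for 4 of 6 members (Ptch1, Gli1, Gli2 and Gli3), each higher in ICC-DMP, beside 13.9% of all genes in that direction, 11.7% in the other and 25.6% in either. They did not overlap with tissue for 1 of 6 members in ICC-DMP, beside 38.5% of all genes, 15.5% higher and 23.1% lower. In ICC-MY they did not overlap with tissue for 3 (Gli1, Gli2 and Hhip, lower), beside 34.2%, 13.4% higher and 20.7% lower. Over all single-gene probe sets 11.4% passed in ICC-DMP against tissue, 12.7% in ICC-MY against tissue and 7.55% between the classes. The members' median difference was 0.54 between the classes, 0.21 in ICC-DMP against tissue and -0.62 in ICC-MY against tissue, where the medians of all genes were -0.02, -0.04 and -0.02. The comparisons with tissue share its 2 arrays and are not independent of each other. The members were chosen with earlier results of these data known, so their counts beside all genes are no independent check.

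Markers of other cells moved with these groups. The mean level of 8 smooth muscle markers was 9.99 to 10.29 on the ICC-DMP arrays, 7.24 to 8.06 on the ICC-MY arrays and 10.67 to 11.61 in tissue. Of the 8, 6 were higher in ICC-DMP than in ICC-MY, beside 5.36% of all genes. That of 9 fibroblast and PDGFRA cell markers was 9.58 to 10.04 in ICC-DMP, 8.85 to 9.67 in ICC-MY and 10.19 to 11.18 in tissue. Of these 9, 2 were higher in ICC-DMP than in ICC-MY, beside the same 5.36% of all genes, and 7 did not pass (median difference 0.66). Pdgfra, 1 of the 2, was higher by 2.10. The part of these cells in the Ptch1, Gli2 and Hhip differences was not tested. For Hhip, the markers that were low in both ICC classes move with it as well: 6 mesothelial markers averaged 3.97 to 4.12 in ICC-DMP, 3.74 to 3.89 in ICC-MY and 8.73 to 8.99 in tissue, and 6 enteric neuron markers 3.32 to 3.46 in ICC-DMP, 3.25 to 3.34 in ICC-MY and 7.70 to 8.31 in tissue. Likewise 6 macrophage markers averaged 3.93 to 3.99 in ICC-DMP, 4.11 to 4.34 in ICC-MY and 6.25 to 6.66 in tissue, and 5 glia and Schwann cell markers 5.06 to 5.24 in ICC-DMP, 4.73 to 4.86 in ICC-MY and 6.40 to 6.62 in tissue. Of these 5, only 2 passed as lower in each class and 3 did not pass. Endothelial markers averaged 3.69 to 3.93 in ICC-DMP, 4.26 to 5.23 in ICC-MY and 5.12 to 5.42 in tissue. Of these 6, 3 passed as lower in ICC-DMP and 1 in ICC-MY, beside 7.32% and 9.78% of all genes. The part of these cells was not tested either.

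None of the 3 ligands passed in any comparison. Shh, the ligand of the gut epithelium together with Ihh, read 6.37, 5.83 and 5.95 in ICC-DMP, 8.0, 5.61 and 5.98 in ICC-MY, and 7.67 and 5.78 in tissue. Its high readings were those of the narrow-range arrays. Ihh stayed between 3.38 and 3.77 and Dhh, the ligand of Schwann cells, between 3.73 and 4.30. Epithelial markers averaged 3.74 to 3.90 in ICC-DMP, 3.66 to 4.03 in ICC-MY and 6.09 to 7.73 in tissue.

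Of the 9 ligand and ligand release genes 1 passed in each comparison, either Scube2 or Disp1. Of all genes 11.0% passed in ICC-DMP against tissue, 13.8% in ICC-MY against tissue and 8.67% between the classes. Scube2, whose secreted product helps lipid-modified ligand leave the cell, read 6.61, 6.35 and 6.78 in ICC-DMP, 4.66, 4.76 and 4.77 in ICC-MY, and 6.56 and 7.04 in tissue. Only ICC-MY stood apart, with 1.85 more in ICC-DMP (SE 0.18, adjusted p = 0.000334) and 2.07 less in ICC-MY than in tissue (-2.07, SE 0.20, adjusted p = 0.000249). Disp1, the pump that releases ligand, was lower in ICC-DMP, with 4.09, 4.06 and 4.45, against 5.17 and 4.91 in tissue (-0.84, SE 0.17, adjusted p = 0.017). It did not pass with ICC-DMP replicate 1 or 2 left out, or with tissue replicate 1 left out (adjusted p 0.0718 to 0.0969), nor without both narrow-range arrays (adjusted p = 0.0599) or with probe sets averaged (adjusted p = 0.107).

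Other membrane proteins listed as hedgehog-binding differed between the ICC classes in both directions, with the glypican Gpc4 alone lower in ICC-DMP. Of 7 measured membrane proteins, 3 were higher in ICC-DMP than in ICC-MY and 1 was lower, beside 5.36% and 3.30% of all genes. Gas1, a co-receptor, read 12.60, 12.99 and 12.58 in ICC-DMP, 10.82, 11.31 and 10.97 in ICC-MY, and 11.51 and 12.70 in tissue, and was 1.69 higher in ICC-DMP (SE 0.30, adjusted p = 0.00924, and 0.0503 without ICC-DMP replicate 2). Against tissue this probe set did not pass (0.62 in ICC-DMP, adjusted p = 0.36, and -1.07 in ICC-MY, adjusted p = 0.0774). Over all probe sets another did, higher in ICC-DMP (1.23, adjusted p = 0.00275) and lower in ICC-MY (-0.78, adjusted p = 0.0238), and a further one did not. Boc, another co-receptor, was higher in ICC-DMP than in ICC-MY by 1.58 (SE 0.39, adjusted p = 0.0409). It failed to pass without ICC-DMP replicate 1, 2 or 3, ICC-MY replicate 2 or either tissue array, or with the 2 groups alone (adjusted p 0.0503 to 0.145), and its other probe sets did not pass.

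The glypicans, heparan sulphate proteoglycans of the cell surface, went opposite ways. Gpc6 read 9.52, 9.38 and 8.99 in ICC-DMP, 7.14, 7.32 and 6.73 in ICC-MY, and 5.99 and 6.33 in tissue, and ICC-DMP exceeded ICC-MY by 2.23 (SE 0.21, adjusted p = 0.000331) and tissue by 3.14 (SE 0.24, adjusted p = 8.04e-05). Gpc6 was also higher in ICC-MY than in tissue by 0.90 (adjusted p = 0.0389). This smaller call was not kept without ICC-DMP replicate 1 or 2, ICC-MY replicate 1 or 2 or either tissue array (adjusted p 0.0597 to 0.183), nor with the 2 groups alone, an intensity trend, array weights or both narrow-range arrays left out (adjusted p 0.0501 to 0.185). Gpc4 was highest in ICC-MY, 1.75 above tissue (SE 0.27, adjusted p = 0.0029), and ICC-DMP minus ICC-MY was -1.68 (SE 0.24, adjusted p = 0.00288).

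Against tissue, ICC-DMP was lower in 2 of the 7 membrane proteins, beside 7.32% of all genes. Cdon, a co-receptor related to Boc, averaged 8.88 ± 0.16 (SD, n = 3) in ICC-DMP against 10.53 ± 0.78 (SD, n = 2) in tissue (-1.65, SE 0.36, adjusted p = 0.0219, and 0.0533 to 0.107 without ICC-DMP replicate 1, 2 or 3 or tunica muscularis replicate 2). Gpc3, a glypican that competes for ligand, averaged 6.69 ± 0.18 (SD, n = 3) in ICC-DMP against 7.77 ± 0.09 (SD, n = 2) in tissue (-1.08, SE 0.25, adjusted p = 0.03). Gpc3 missed the threshold without ICC-DMP replicate 1, 2 or 3 or either tissue array (adjusted p 0.0777 to 0.121), and with arrays centred on their medians (adjusted p = 0.0512).

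Of 23 intracellular transduction genes, each by its brightest probe set, 0 passed limma's test against tissue in either class. Of all genes 11.0% passed in ICC-DMP and 13.8% in ICC-MY. An unadjusted p under 0.05 was found for 2 of the 23 in each class, beside 21.7% of all genes in ICC-DMP and 24.6% in ICC-MY. Between the classes 1 was higher in ICC-DMP and 1 lower, near the 8.67% of all genes that passed. Arrb1, a beta-arrestin that binds Smoothened, read 7.72, 7.98 and 8.38 in ICC-DMP and 4.33, 5.42 and 5.99 in ICC-MY, without overlap (2.78, SE 0.45, adjusted p = 0.00543). Csnk1e, a casein kinase, averaged 6.97 ± 0.24 (SD, n = 3) in ICC-DMP against 8.38 ± 0.72 (SD, n = 3) in ICC-MY (-1.41, SE 0.33, adjusted p = 0.0357, and 0.0878 to 0.134 without ICC-DMP replicate 1, 2 or 3 or ICC-MY replicate 2 or 3).

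The primary cilium, where the signal is transduced, was measured through 35 genes of cilium structure and intraflagellar transport. Between the classes 0 passed limma's test, beside 8.67% of all genes, and 9 had an unadjusted p under 0.05, beside 18.5% of all genes. Bbs4, of the ciliary membrane coat, was higher than in tissue in ICC-DMP (1.35, SE 0.30, adjusted p = 0.0223) and in ICC-MY (1.12, SE 0.30, adjusted p = 0.0413). Cc2d2a, of the ciliary transition zone, was higher in ICC-DMP than in tissue (0.74, SE 0.15, adjusted p = 0.0167). These were the only calls among the 35, 2 in ICC-DMP against tissue and 1 in ICC-MY, beside 11.0% and 13.8% of all genes. Each missed the threshold without ICC-DMP replicate 1, 2 or 3 or tunica muscularis replicate 1 (adjusted p 0.0552 to 0.214), and that of Bbs4 in ICC-MY also without ICC-MY replicate 2 or 3 (adjusted p 0.108 and 0.105). With its probe sets averaged Bbs4 passed in neither class (adjusted p 0.0585 and 0.0778), and with the 2 groups alone it did not pass in ICC-MY (adjusted p = 0.139). Cc2d2a did not pass with dim genes removed (adjusted p = 0.0726) or with an intensity trend (adjusted p = 0.0799).

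Genes described as hedgehog targets moved in both directions. Of 18, 7 were higher and 7 lower in ICC-DMP than in tissue, 3 higher and 9 lower in ICC-MY than in tissue, and 7 higher and 1 lower in ICC-DMP than in ICC-MY. Of all genes, 3.72% were higher and 7.32% lower in the first of these comparisons, 4.05% and 9.78% in the next, and 5.36% and 3.30% between the classes. The targets' median differences were -0.35, -0.66 and 0.64. The list was chosen with earlier results of these data known, so its counts are no independent check. Foxf2, a forkhead factor of gut mesenchyme, read 7.66, 7.70 and 7.51 in ICC-DMP, 4.57, 3.84 and 3.89 in ICC-MY, and 5.40 and 5.77 in tissue, so that tissue lay between the classes without overlap. ICC-DMP exceeded ICC-MY by 3.53 (SE 0.22, adjusted p = 5.08e-05) and tissue by 2.04 (SE 0.24, adjusted p = 0.000998), and ICC-MY was lower than tissue (-1.49, SE 0.24, adjusted p = 0.00426). Its relative Foxf1, named after its values were seen, was higher than in tissue in ICC-DMP (2.03, SE 0.21, adjusted p = 0.000424) and in ICC-MY (1.93, SE 0.21, adjusted p = 0.000467), with 0.10 between the classes (adjusted p = 0.866).

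Sfrp1, a secreted Wnt inhibitor, read 11.11, 11.04 and 11.28 in ICC-DMP, 7.32, 7.58 and 8.14 in ICC-MY, and 7.81 and 8.16 in tissue, and was higher in ICC-DMP than in ICC-MY by 3.47 (SE 0.22, adjusted p = 5.65e-05). Ccnd1, the G1 cyclin, was higher in ICC-DMP than in ICC-MY by 2.86 (SE 0.31, adjusted p = 0.000656) and, against tissue, lower in ICC-MY (-1.78, SE 0.35, adjusted p = 0.0101, and 0.0744 without tunica muscularis replicate 2). Osr1, a zinc-finger factor of mesenchyme, went the other way, with 5.89, 5.79 and 5.83 in ICC-DMP, 9.41, 10.54 and 10.78 in ICC-MY, and 6.96 and 7.75 in tissue. ICC-DMP minus ICC-MY was -4.41 (SE 0.36, adjusted p = 0.000156), and ICC-MY exceeded tissue by 2.89 (SE 0.40, adjusted p = 0.00171). Osr1 was lower in ICC-DMP than in tissue by 1.52 (-1.52, adjusted p = 0.0464), a call lost without ICC-DMP replicate 1, 2 or 3, ICC-MY replicate 2 or tunica muscularis replicate 2 (adjusted p 0.0625 to 0.218) and with arrays centred on their medians (adjusted p = 0.0641).

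Wnt5a and Myocd were lower than in tissue in both classes, most so in ICC-MY. Wnt5a, a mesenchymal Wnt ligand, read 5.13, 5.58 and 5.13 in ICC-DMP, 3.61, 3.44 and 3.98 in ICC-MY, and 7.53 and 8.08 in tissue (-2.53 in ICC-DMP, SE 0.25, adjusted p = 0.00033, and -4.13 in ICC-MY, SE 0.25, adjusted p = 1.98e-05). Myocd, the co-activator of the smooth muscle programme, is also among the smooth muscle markers above. It was lower by 1.30 in ICC-DMP (SE 0.29, adjusted p = 0.0231, and 0.0776 to 0.119 without ICC-DMP replicate 1 or 2 or tunica muscularis replicate 2) and by 4.54 in ICC-MY (SE 0.29, adjusted p = 2.8e-05). Bmp4, named after its values were seen, fell in both classes as well (-1.12 in ICC-DMP, adjusted p = 0.00929, and 0.0576 without tunica muscularis replicate 2; -1.94 in ICC-MY, adjusted p = 0.000428).

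**Figure D3:**
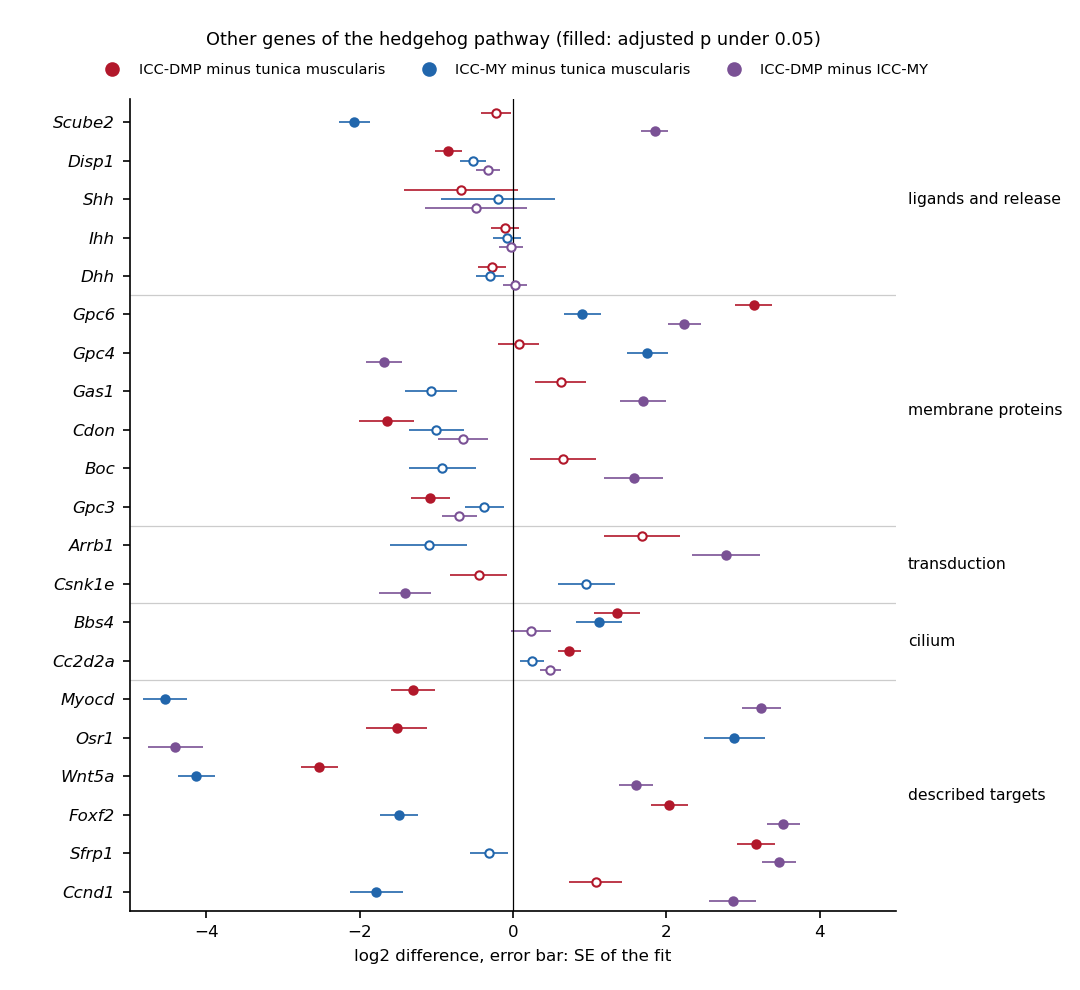
Log2 difference with its SE (x axis) of the other named pathway genes (y axis, grouped by role) in the 3 comparisons; filled symbols passed at an adjusted p under 0.05. Between the ICC classes Foxf2, Sfrp1, Gpc6 and Scube2 lie right of 0, and Osr1 and Gpc4 left of it.

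Across the 33 differences called among these genes, not counting Foxf1 and Bmp4, 25 were of genes with other probe sets. For 13 of the 25 a further probe set passed the same way over all probe sets, and for 0 did one pass the opposite way. No further probe set passed for the calls of Foxf2, Myocd, Cdon, Disp1, Bbs4 and Boc, or for Wnt5a between the classes. The other Foxf2 probe set gave -0.11 in ICC-DMP against tissue, -0.05 in ICC-MY against tissue and -0.06 between the classes. That of Myocd gave 0.04, -0.22 and 0.26 in the same order. In ICC-DMP against tissue that of Cdon gave -0.18 and that of Disp1 0.06.

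The genes whose levels ran closest to the called members were found by the root mean square difference between gene-centred log2 values over the 8 arrays, among 16311 genes. Closest to Ptch1 was Pxylp1 (0.08), followed by Clic4 (0.17) and Ccdc80 (0.18). Closest to Gli2 were Susd5 (0.12), Nol4l (0.14) and Filip1l (0.16). Closest to Hhip were Asphd1 (0.12), Nefh (0.12), which encodes a neurofilament protein, and Zfp759 (0.13). Pxylp1, for example, read 11.06, 11.67 and 11.34 in ICC-DMP, 8.93, 9.92 and 9.68 in ICC-MY, and 9.61 and 11.30 in tissue, with the same low readings on the narrow-range arrays as Ptch1.

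The Ptch1 and Gli2 differences under each setting are shown together. Gli2 stayed past the threshold throughout, and Ptch1 between the classes lost its call when an ICC array was removed.

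**Figure D4:**
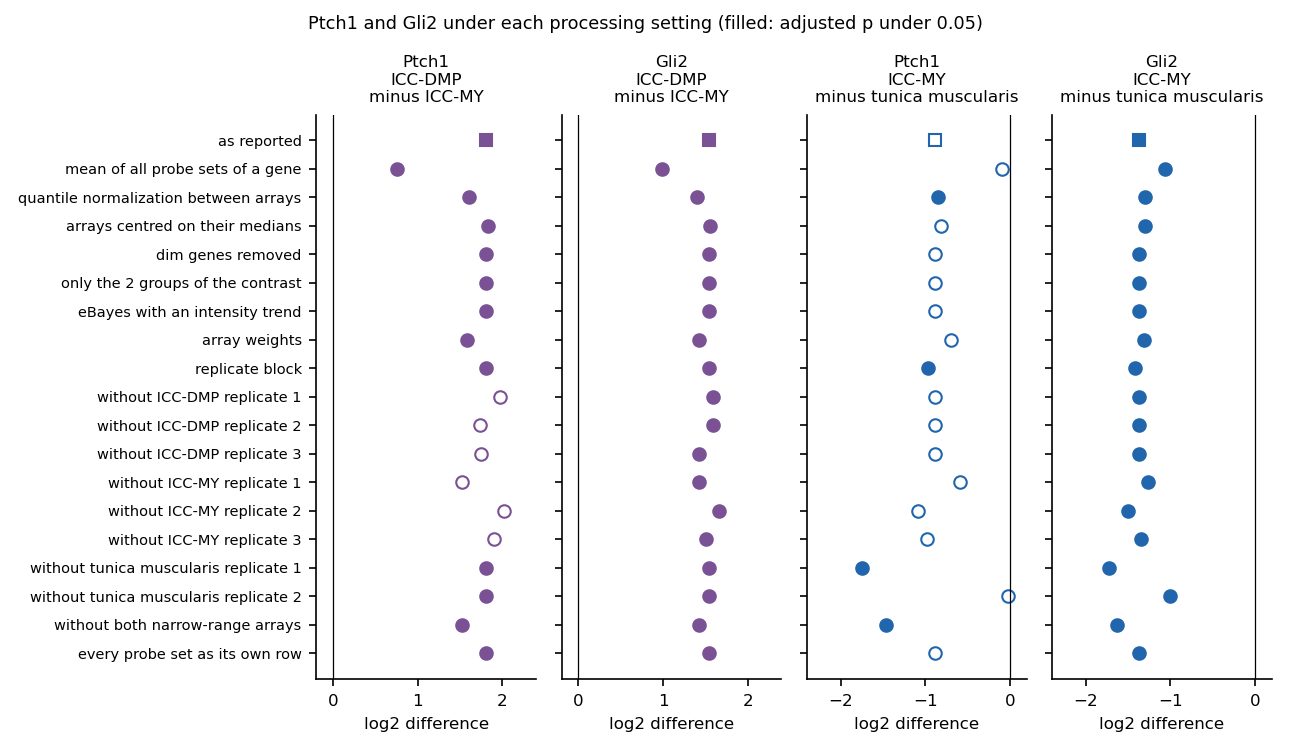
Log2 difference (x axis) of Ptch1 and Gli2 under each processing setting (y axis) for ICC-DMP minus ICC-MY and ICC-MY minus tunica muscularis; filled symbols passed at an adjusted p under 0.05 and squares are the values as reported. Gli2 is filled in every row of both comparisons, and Ptch1 against tissue runs from -1.75 to -0.02 depending on the tissue array kept.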

How the data were processed

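The values deposited by the authors are log2 expression levels of each probe set on each array. Per the submitters' processing notes RMA and limma were used, with no version or role given, and whether the arrays were normalized together is not stated by the labels. Values ran from 1.87 to 14.0. They were tested as deposited. Without the 64 control probe sets there were 45037, of which 34945 named 1 gene, 932 several and 9160 were unnamed. Of the single-gene probe sets 34741 had their Entrez identifier in the RefSeq gene table (GRCm38.p6), and 0 symbols changed. Each of 18193 genes was represented by its probe set with the highest mean.

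Groups came from the titles. A single model of 8 arrays in 3 groups was fitted by lmFit and eBayes (limma 3.58.1 under R 4.3.3), with 5 residual and 3.17 prior degrees of freedom, 2-sided, adjusted by Benjamini-Hochberg over all genes, or over all single-gene probe sets where stated. Errors are SE of the fit or SD over arrays. The code was tested on simulated data. The titles call the samples biological replicates without saying that they come from separate animals, so p-values measure the spread between samples.

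Arrays with the same number deviated together from their group means. Correlations over genes were 0.289 to 0.5 for the 3 pairs of ICC-DMP and ICC-MY, and 0.155 to 0.608 for the pairs with tissue. The pair at 0.577 is that of the 2 narrow-range arrays. Pairs of unlike number gave -0.338 to -0.016 between the ICC classes, and up to 0.169 with tissue. The deviations of the 2 tissue arrays are equal and opposite, so their correlations mirror each other. The titles do not say that equal numbers mark paired samples. The main fit has no block, and a fit with the number as a block was an alternative.

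The members and gene lists were chosen with earlier results of these data known. Beside the members, the text names up to 6 called genes per pathway list, by largest difference, and the 3 main ligands. Grk2, Arl13b, Rpgrip1l and Arl6 had no probe set that named them alone and have no values. The alternatives were other probe set rules, quantile normalization, median centring, a filter on dim genes, the 2 groups alone, an intensity trend, array weights, the block, and each array left out.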

Additional observations from a re-analysis of the deposited data

How the results depend on the processing

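The Gli2 calls in ICC-MY against tissue and between the classes kept their direction and their side of the threshold under all 18 alternatives, and the Hhip calls against tissue under the 17 that gave a value (without 1 array, -1.37 to -0.95 in ICC-DMP and -1.38 to -0.96 in ICC-MY). The filter on dim genes removed Gli1 and Hhip, so that 0 members passed in ICC-DMP and 1 in ICC-MY against tissue, and left 1109 and 1629 genes called. Where no cause is given, the cause was not tested.

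Ptch1 against tissue passed in ICC-DMP with probe sets averaged (0.66, 2 members called) and, in ICC-MY, under quantile normalization (-0.85), with the replicate block (-0.97) and without both narrow-range arrays (-1.46). Without 1 array it ran from 0.06 to 1.79 in ICC-DMP, -1.75 to -0.02 in ICC-MY and 1.52 to 2.02 between the classes, and Gli3 between the classes from 0.49 to 0.74. Directions of differences that had not passed turned for Gli2 in ICC-DMP against tissue (-0.07 with probe sets averaged, -0.20 without both narrow-range arrays) and Smo in ICC-MY against tissue (0.12 with array weights). Without 1 array they turned for Gli2 in ICC-DMP against tissue (-0.20 to 0.52), Gli1 in ICC-DMP against tissue (-0.08 to 0.23), Smo in ICC-MY against tissue (-0.47 to 0.23) and Hhip between the classes (-0.11 to 0.12). Members called ran from 1 to 2 in ICC-DMP against tissue and between the classes without 1 array. The replicate block changed no other member's call.

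Genes called in ICC-DMP against tissue numbered 3021 under quantile normalization, 3977 as probe sets and 1264 to 2480 without 1 array. In ICC-MY against tissue they numbered 3856, 4452 as probe sets and 1520 with the 2 groups alone. Between the classes they numbered 2557 under quantile normalization, 2646 with array weights, 2617 with the replicate block, 2630 without both narrow-range arrays, 2638 as probe sets and 991 to 1840 without 1 array. Of 38 called differences of other named genes, 23 were kept under every alternative run, 15 lost their call under at least 1 and 0 reversed. With no detection calls, whether the Gli1 and Hhip probe sets were above background was not tested.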
